A study of Homo sapiens with 4 samples.

Results

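MALAT1 and NEAT1, the best known long non-coding RNAs (lncRNAs) of the cell nucleus, were described in the established human line HUH7, derived from a hepatocellular carcinoma (HCC). The members were all rows of the deposited non-coding transcript table whose identifier, without its version, belongs to either gene in the GENCODE release 44 annotation on GRCh37. This gave 5 of 19835 rows, 3 of MALAT1 and 2 of NEAT1. Of these 5 rows, 3 had a mean of at least 0.1 FPKM (fragments scaled by transcript length and library depth) and entered the tests, and 2 were listed at 0 in every library. The 4 libraries form 1 group, HUH7 cells grown untreated in DMEM with serum, and are called replicates 1 to 4 here. Their titles also carry a letter, L for replicates 1 and 3 and H for replicates 2 and 4, which the submitters call an in-house name with no role in their comparisons. The study used these data to choose lncRNAs above 5 FPKM for a knockdown screen. There was no control arm, and the labels do not tell whether each library had a culture of its own. The p-values therefore speak of the variation among 4 libraries, part or all of it possibly technical. Errors are SD over n = 4 libraries unless named as SE.

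MALAT1 RNA collects in nuclear speckles, the bodies rich in pre-mRNA splicing factors, and is among the most abundant lncRNAs of many human cells. NEAT1 is the architectural RNA of paraspeckles. It is made as a short polyadenylated transcript and as a long one from the same start, and the long transcript is the one needed to build the bodies. MALAT1 and long NEAT1 do not end in an ordinary poly(A) tail. Their 3′ ends are cut by RNase P in front of a tRNA-like fold, and the new end is protected by a triple helix that pairs a genomically encoded A-rich tract with U-rich motifs. Both RNAs have been studied in liver cancer.

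The 2 genes lie side by side on the plus strand of chromosome 11 (GRCh37). NEAT1 spans 65190245 to 65213011, and MALAT1 spans 65265111 to 65275544, which leaves 52.1 kb between them. Their 3′ ends are printed here because they share runs of letters, which were searched in these windows only. Capitals mark every run of at least 10 bases that occurs in both windows of 185 nt, which cover chr11:65273464-65273648 for MALAT1 and chr11:65212889-65213073 for NEAT1, plus strand, GRCh37.
MALAT1 3′ end: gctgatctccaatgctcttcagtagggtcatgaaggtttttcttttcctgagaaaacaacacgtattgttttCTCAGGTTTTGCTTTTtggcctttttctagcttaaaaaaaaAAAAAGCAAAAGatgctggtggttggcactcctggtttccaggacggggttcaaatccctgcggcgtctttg
NEAT1 3′ end: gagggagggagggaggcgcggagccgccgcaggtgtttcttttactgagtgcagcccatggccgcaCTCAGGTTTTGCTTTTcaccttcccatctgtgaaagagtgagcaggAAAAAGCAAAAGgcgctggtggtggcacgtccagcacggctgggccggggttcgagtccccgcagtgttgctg
A run of 16 nt with a U-rich stretch (written with T) and a run of 12 nt in the A-rich tract were shared. Further U-rich letters before that stretch lay outside the shared runs. The run of 16 nt occurs 2 times on all of chromosome 11, on either strand, so these are its only places there, while the run of 12 nt occurs 207 times. Behind them lay a match to the consensus of the tRNA B box, the internal promoter element of tRNA genes. The match began at position 65273624 in MALAT1, and at 65213049 past the annotated end of NEAT1. The search ran over both strands of the genes and, on the plus strand only, over 500 bases past NEAT1. It found 1 further match in NEAT1, at position 65197529, and 0 on the reverse strand of either gene. On chromosome 11, 0.39% of 708801 windows of 185 nt hold the motif on either strand. The 2 printed windows were placed around the last match of the search for each gene. They hold it by construction, so this share is no test of them. The long NEAT1 model, the same version as the deposited row, ends 1 base before the end of the shared A-rich run. The current MALAT1 model runs on for 1956 nt past it.

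The starts of the genes are printed to describe their letters, and a bearing of these on the levels was not tested. Each window covers 120 bases before to 30 bases from the first base of a start, on the plus strand of GRCh37. The MALAT1 windows are 2 RefSeq starts (table of build GRCh38.p14), found letter for letter on GRCh37, and the NEAT1 window is that of the long row. Capitals mark TATAAA and GGGCGG on either strand, CCAAT was searched as well, and no matches overlapped. The windows are chr11:65265089-65265238, chr11:65266396-65266545 and chr11:65190149-65190298, in this order.
MALAT1 upstream start: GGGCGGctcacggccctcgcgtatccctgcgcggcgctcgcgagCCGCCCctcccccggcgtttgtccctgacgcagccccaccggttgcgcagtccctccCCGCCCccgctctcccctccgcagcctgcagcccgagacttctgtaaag
MALAT1 downstream start: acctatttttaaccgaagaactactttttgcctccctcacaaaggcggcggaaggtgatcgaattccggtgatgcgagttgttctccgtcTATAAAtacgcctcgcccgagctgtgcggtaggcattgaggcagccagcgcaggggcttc
NEAT1 start: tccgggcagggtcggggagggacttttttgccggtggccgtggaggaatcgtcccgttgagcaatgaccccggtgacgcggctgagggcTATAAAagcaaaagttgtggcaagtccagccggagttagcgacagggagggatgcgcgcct
TATAAA began at position -30 from the downstream MALAT1 start and at position -31 from the start of the long NEAT1 row. The current model of the short NEAT1 row starts earlier, at 65190245 against 65190269, so the position differs from there. TATAAA was not found in the upstream MALAT1 window, which held GGGCGG 3 times and had a GC content of 74.7%, against 54.0% and 62.0% for the other windows. Of 35116 RefSeq windows of the same span, 6.21% hold TATAAA, 36.1% GGGCGG and 22.4% CCAAT on either strand, and 2.63% hold TATAAA on the plus strand in the 50 bases before the start. These matches describe the letters and show no binding.

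MALAT1 was one of the most abundant genes of the table. Its gene sum, the FPKM of its rows added up, was 1036, 1535, 909.1 and 910.7 FPKM in replicates 1 to 4, a mean of 1098 ± 298 FPKM. Replicate 2 stood above the others, which lay between 909.1 and 1036 FPKM. NEAT1 was measured at 46.4, 71.6, 45.1 and 40.2 FPKM, a mean of 50.8 ± 14.1 FPKM. Again replicate 2 was the highest, and the other 3 lay between 40.2 and 46.4 FPKM. In bulk RNA, fewer cells with a transcript and less of it in each cell cannot be told apart.

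**Figure D1:**
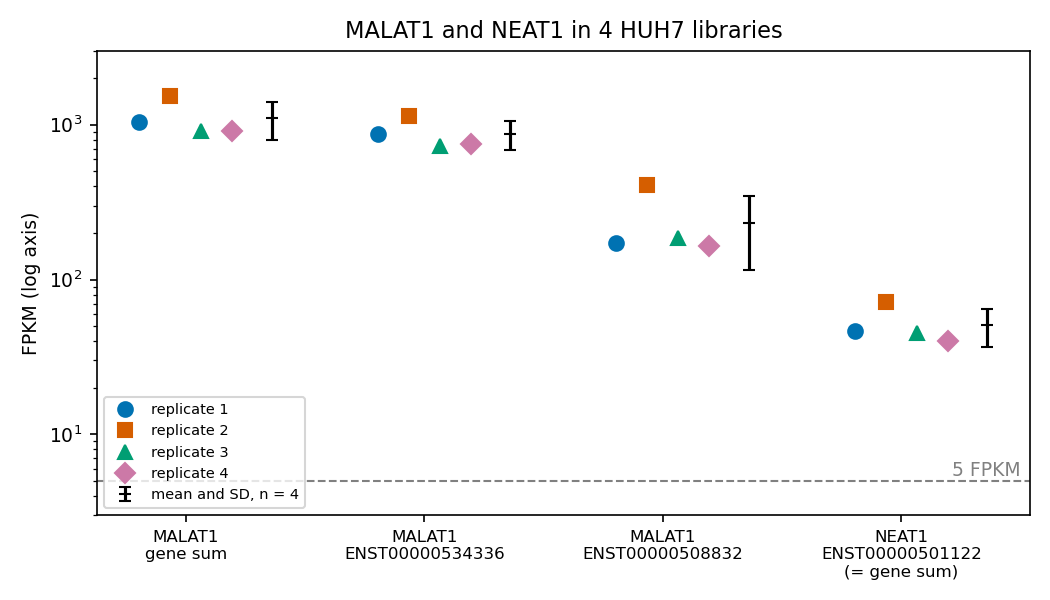
FPKM (log axis) of the MALAT1 gene sum, its 2 rows with signal and the NEAT1 row in each of the 4 HUH7 libraries (coloured points), with the mean and SD (black). MALAT1 lies between 909.1 and 1535 FPKM and NEAT1 between 40.2 and 71.6 FPKM, all points are above the dashed line at 5 FPKM, and replicate 2 is the highest of each set.

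Both genes were above 5 FPKM, the level the study asked of a transcript. On the log2(FPKM + 1) scale MALAT1 was 7.48 ± 0.117 (SE) above it (adjusted p = 1.05e-16) and NEAT1 3.07 ± 0.126 (SE) above it (adjusted p = 6.68e-12), by the one-sample moderated test of limma over 7124 genes with Benjamini-Hochberg adjustment. The members did not stand alone in this, since 50.3% of all genes tested were called above 5 FPKM. Among transcripts, of which 41.9% of 11435 were called above 5 FPKM, all 3 tested rows were called, the lowest of them the NEAT1 row at 3.07 ± 0.136 (SE; adjusted p = 2.05e-08). Both genes and the 3 rows were above 5 FPKM in 4 of 4 libraries.

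MALAT1 was far above NEAT1 per unit of length. The ratio of their FPKM was 22.3, 21.4, 20.2 and 22.7 in replicates 1 to 4, a mean of 21.7 ± 1.12, and MALAT1 was higher in 4 of 4 libraries. In the exact two-sided sign-flip test p was 0.13, the smallest that 4 libraries allow, and it was the same after adjustment over 4 ratios of members and rows. By limma NEAT1 was 4.41 ± 0.183 (SE) below MALAT1 on the log2(FPKM + 1) scale. This SE was moderated over the differences of all genes from MALAT1, and was 0.204 in the fit against NEAT1. The SE of the log2 ratio over the 4 libraries alone was 0.037. The ratio varied by 5.17% (SD over mean), whereas MALAT1 itself varied by 27.1% and NEAT1 by 27.8%. A scaling factor between libraries cancels in this ratio.

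The place of each member in the order of levels was taken from the differences of all other genes from it within each library. MALAT1 had place 58 of 7124 genes by mean level, counted among genes with a matched row, which leaves out unmatched rows such as the most abundant one of the table. It had places 62, 35, 77 and 70 in replicates 1 to 4. By limma, 99.2% of 7123 other genes differed from it, 31 of them higher and 7037 lower, and 55 genes with means between 836.6 and 1467 FPKM could not be placed above or below. Without replicate 2, 50 genes were called higher than MALAT1. With each gene taken as its highest transcript the number was 50 as well. NEAT1 had place 1575, with 77.9% of genes tested below it, and places 1642, 1336, 1707 and 1723 in the libraries. Of the other genes 93.2% differed from NEAT1, 1346 higher and 5294 lower, and 483 with means between 38.8 and 64.6 FPKM could not be placed. In each of these tests the spread of the member itself entered every difference, so the calls are not independent of each other. The SE was also moderated over all genes, so a call does not rest on the spread of that gene alone.

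**Figure D2:**
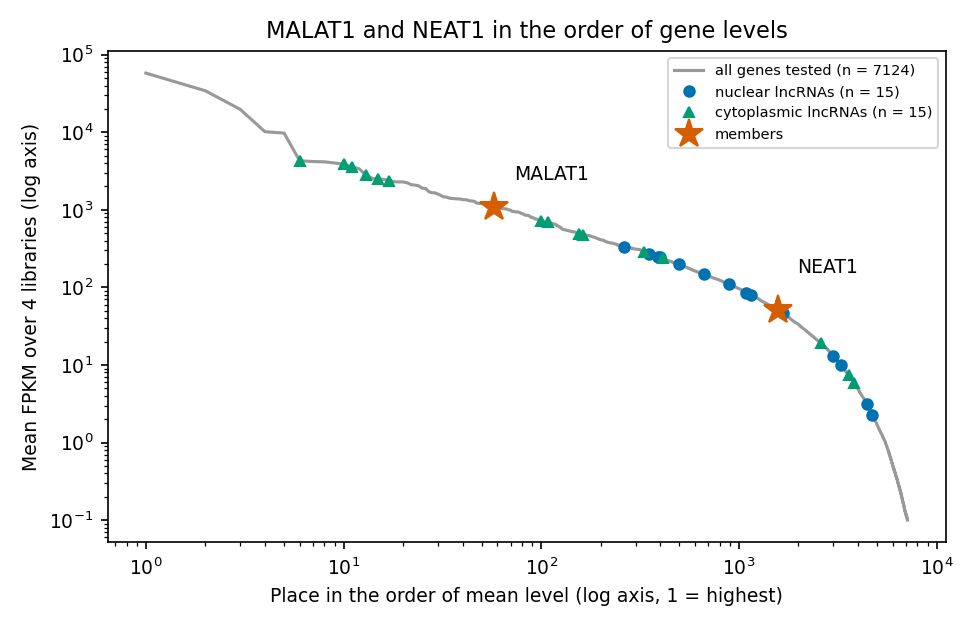
Mean FPKM over 4 libraries of all 7124 genes tested against their place in the order (both axes log), with MALAT1 and NEAT1 as stars, nuclear lncRNAs as circles and cytoplasmic lncRNAs as triangles. MALAT1, at place 58, lies above all 15 measured genes of the nuclear list and below 6 of the 15 of the cytoplasmic list, and NEAT1, at place 1575, lies among the nuclear list.

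The named genes next to MALAT1 in this order were not separated from it by limma. LINC01609 (1140 ± 151 FPKM) and LINC01873 (1113 ± 46.9 FPKM) stood next above, and LINC00504 (1061 ± 188 FPKM) and SMIM26 (1054 ± 85.5 FPKM) next below. SMIM26 is a protein-coding gene, present in the table by its non-coding transcripts. The differences of these neighbours from MALAT1 on the log2(FPKM + 1) scale lay between -0.03 and 0.08, with SE of 0.213 to 0.216. These SE were moderated over all genes and are not the spread of each gene alone. Next above NEAT1 were LINC01483 (50.9 ± 5.63 FPKM) and PART1 (50.8 ± 3.40 FPKM), and next below were MEG3, an imprinted lncRNA (50.6 ± 3.28 FPKM), and SNORA71B, a small nucleolar RNA (50.6 ± 18.4 FPKM). None of these 4 was separated from NEAT1, with differences between -0.04 and 0.03. The lowest and highest library of MEG3 were 47.4 and 55.2 FPKM, a much narrower range than that of NEAT1.

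Other lncRNAs known from the nucleus were mostly lower than MALAT1 and spread around NEAT1. Of 21 genes on this list 15 had a row, 13 were called above 5 FPKM and 2 below it, and their median was 85.4 FPKM, against 7.61 FPKM over all genes tested. Of the 15, 0 had a higher mean than MALAT1 and 9 a higher mean than NEAT1. The highest on the list were TUG1, a lncRNA bound by Polycomb proteins (387, 348, 304 and 304 FPKM), and PVT1, the neighbour of MYC (286, 271, 292 and 234 FPKM). Unlike the members, neither was highest in replicate 2. XIST, the lncRNA of X chromosome inactivation, was not on this list. It was at 435, 587, 415 and 385 FPKM, above TUG1 in mean and highest in replicate 2, as the members were. The lowest were MIAT, a lncRNA of nuclear foci in neurons (3.16 ± 0.824 FPKM), and HOTTIP, transcribed from the end of the HOXA cluster (2.27 ± 0.923 FPKM). Replicate 2 was the highest library for 4 of these 15 genes, against 43.7% of all genes tested and 57.7% of genes of at least 20 FPKM.

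lncRNAs known from the cytoplasm reached higher levels. Of 16 on this list 15 had a row, 14 were called above 5 FPKM and 0 below it, and their median was 693 FPKM. Of the 15, 6 had a higher mean than MALAT1 and 12 a higher mean than NEAT1. Replicate 2 was the highest library for 4 of the 15, the same number as on the nuclear list. SNHG5, a host gene of small nucleolar RNAs, had 4286 ± 401 FPKM, and DANCR, another such host, 3882 ± 322 FPKM. At the low end were LINC-ROR, a lncRNA known from pluripotent cells (7.48 ± 2.29 FPKM), and H19, an imprinted lncRNA of fetal liver (5.93 ± 2.38 FPKM), which could not be placed above or below 5 FPKM. Both lists were drawn up with earlier results of these data known, and the position of each RNA within the cell was not measured here.

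Signal of MALAT1 was divided among its rows by the authors' quantification. ENST00000534336, the long transcript with 1 exon, was at 865.4, 1130, 724.8 and 746.9 FPKM. ENST00000508832, whose current model has 2 exons, was at 170.9, 405.4, 184.3 and 163.7 FPKM. In this second row replicate 2 was more than double any other library, whereas the main row was 1.30 times its own mean there. ENST00000544868 was listed at 0 in all 4 libraries. The main row thus held 83.5%, 73.6%, 79.7% and 82.0% of the gene sum, a mean of 79.7 ± 4.37%, and the second row 16.5%, 26.4%, 20.3% and 18.0%, a mean of 20.3 ± 4.37%. The main row was above the second in 4 of 4 libraries, by a ratio of 4.09 ± 0.983.

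The shorter MALAT1 rows have little sequence of their own. By current models, 99.6% of the 24-mers of ENST00000508832 and 99.4% of those of ENST00000544868 also lie in ENST00000534336, and 23 and 14 of them respectively do not. In the other direction, 58.8% of the 24-mers of ENST00000534336 lie in ENST00000508832 and 4289 do not. A 24-mer is a stretch of 24 bases, and one that lies in 2 rows cannot tell them apart. The deposited versions of the 3 MALAT1 rows are older than the current models, so these overlaps need not hold for the versions counted. The study's list gives a stretch of sequence under each of the rows with signal. The first 120 bases of each are shown because they locate what was listed under both names, ENST00000534336 at chr11:65273120-65273239 and ENST00000508832 at chr11:65270188-65270307, plus strand, GRCh37.
ENST00000534336: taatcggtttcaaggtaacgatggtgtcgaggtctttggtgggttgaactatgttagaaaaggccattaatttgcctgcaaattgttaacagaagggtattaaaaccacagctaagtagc
ENST00000508832: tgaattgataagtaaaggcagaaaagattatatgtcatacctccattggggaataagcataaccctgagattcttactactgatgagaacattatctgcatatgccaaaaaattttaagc
Both stretches match the genome once on chromosome 11 and both lie within the current model of ENST00000534336.

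Signal of NEAT1 was placed on the long transcript alone. ENST00000501122 has 1 exon of 22743 nt (chr11:65190269-65213011, plus strand), the same version as in the current annotation, and held 100% of the NEAT1 sum in each library. ENST00000499732, the short transcript, was listed at 0 in all 4 libraries. Of the 24-mers of its current model, of 3441 nt, 98.7% also lie in the long one and 44 do not, while 14.9% of those of the long transcript lie in the short one. A value listed at 0 in a table without counts can be an estimate that placed all shared reads on the other row, so it does not show that the short transcript was absent. The deposited version of the short row also differs from its current model. The labels name the molecule as polyA RNA, whereas their protocol and the study's methods give ribosomal depletion, which was taken here as the method. A selection on poly(A) would bear on the levels of MALAT1 and long NEAT1, which lack an ordinary tail, and on the split between the NEAT1 rows, and these data cannot tell which was used.

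Other genes share little sequence with the members. In the sense direction 1.60% of the 24-mers of ENST00000534336 and 2.34% of those of ENST00000501122 also occur in transcripts of other genes with a row in the table. For the other 3 rows it was 0 on either strand. TALAM1, annotated as the antisense gene of MALAT1 (65266783 to 65274903, minus strand), had no row. How the counting treated strand is not given in the sources used here. Reads of TALAM1 therefore cannot be told apart from those of MALAT1.

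Around the members the table was sparse. GENCODE lists 44 genes within 200 kb of either gene, 18 of them protein-coding, and 4 had a row, members included. ENST00000533886 (ENSG00000255478, 564 nt, 65134909 to 65142770, plus strand), an uncharacterised lncRNA 47.5 kb before NEAT1, was at 163.0, 183.5, 166.1 and 140.3 FPKM. Its mean of 163 ± 17.7 FPKM was above that of NEAT1, and its spread of 10.9% below those of both members. ENST00000567594 of ZNRD2-DT, 61.6 kb past MALAT1 on the minus strand, was listed at 0 in all libraries.

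**Figure D3:**
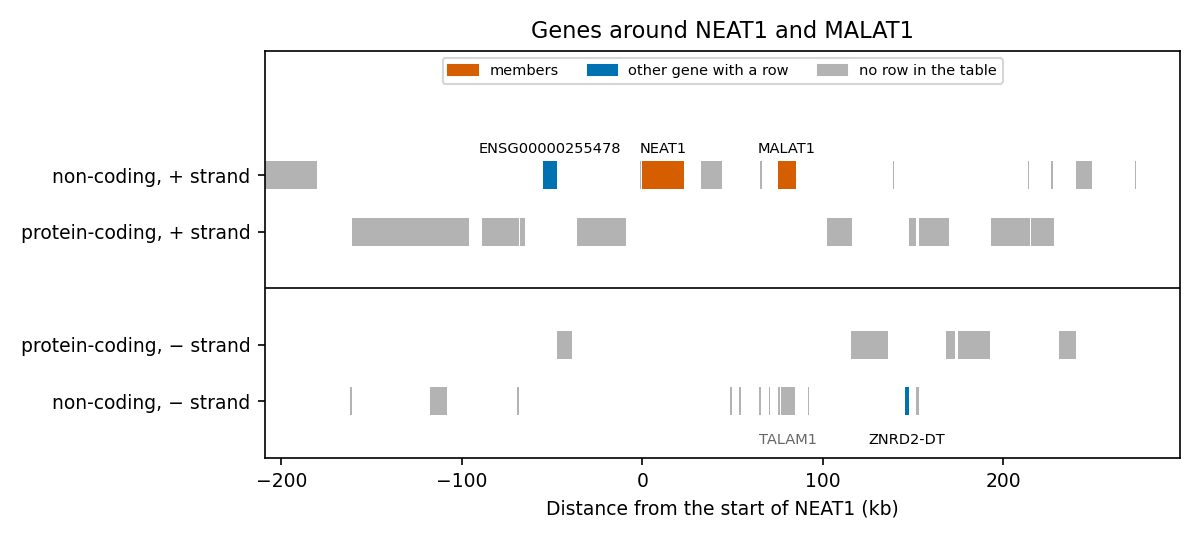
Genes annotated around the members by distance from the start of NEAT1 (kb), split by strand and by coding or non-coding class; members are orange, other genes with a row blue and genes without a row grey, and very short genes are drawn 0.8 kb wide. Of the 44 genes, 4 had a row, among them ENSG00000255478 at 47.5 kb before NEAT1.

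Both members were highest in replicate 2 and varied more between libraries than most genes of their level. Relative to its own mean, MALAT1 was at 0.944, 1.40, 0.828 and 0.830 in replicates 1 to 4, and NEAT1 at 0.913, 1.41, 0.887 and 0.791. The spread of MALAT1, 27.1%, was above that of 95.5% of the 110 genes within 2-fold of its mean, whose median was 10.8%. That of NEAT1, 27.8%, was above that of 91.8% of 1313 such genes, with a median of 13.5%. Most of the spread lay in replicate 2. Without it the spread fell to 7.67% for MALAT1 and 7.45% for NEAT1. The labels name no treatment for replicate 2. Replicate 4, which shares its title letter H, was the lowest library for NEAT1 and close to replicate 3 for MALAT1. A bearing of the title letter on the levels was not tested.

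**Figure D4:**
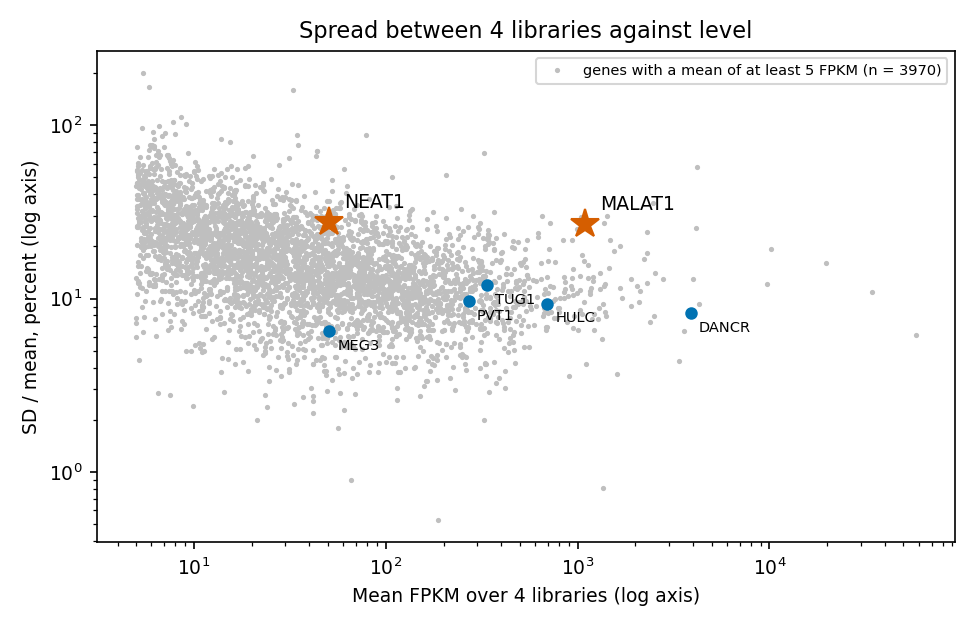
Spread between the 4 libraries (SD over mean in percent, log axis) against mean FPKM (log axis) for 3970 genes with a mean of at least 5 FPKM, with the members as stars and 5 lncRNAs as blue points. MALAT1 at 27.1% and NEAT1 at 27.8% lie in the upper part of the cloud at their levels, and MEG3, next to NEAT1 in level, lies at 6.48%.

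Many genes were highest in replicate 2, and the members exceeded that shift. Of 2540 genes of at least 20 FPKM, 57.7% were highest in replicate 2, where the median gene stood at 1.10 of its own mean. MALAT1 in replicate 2 was 1.61 times the mean of the other 3 libraries, against a median of 1.12 for the 110 genes of like level, of which 0 had as high a ratio. NEAT1 was 1.63 times the mean of the others, against a median of 1.15 for its 1313 genes, of which 16 had as high a ratio. With median-of-ratios scaling, which divides replicate 2 by 1.12, MALAT1 was still 1.40 times and NEAT1 1.42 times the mean of the others. The most abundant row of the table, ENST00000553637, took 58.1% of the summed FPKM in replicate 2 and 62.2% to 65.6% in the others. Its part in the result was not tested. With sums made equal without this row the ratios were 1.54 for MALAT1 and 1.56 for NEAT1, and with this row kept they were 1.78 and 1.80.

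**Figure D5:**
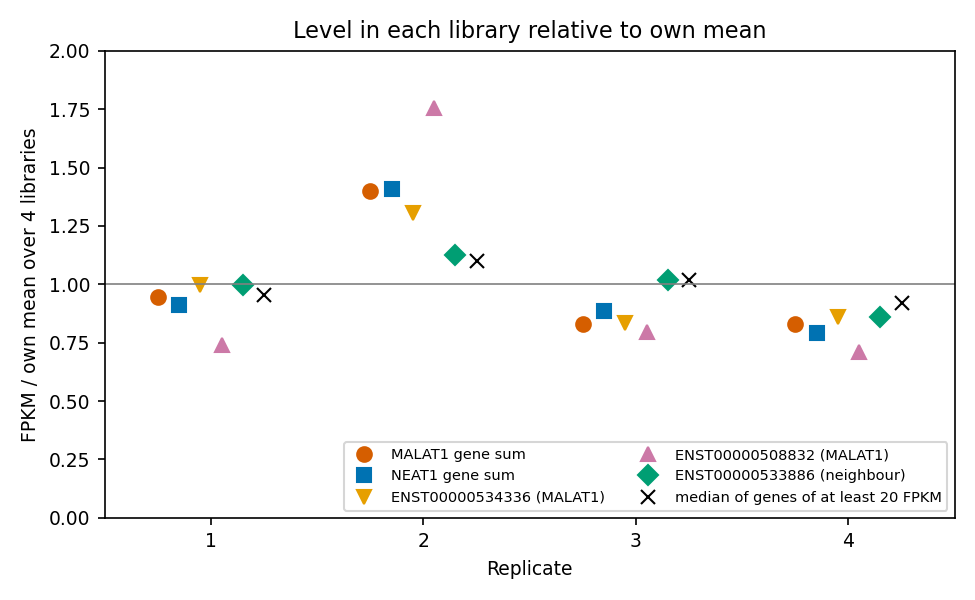
Level in each library relative to the own mean over 4 libraries for the 2 gene sums, the 2 MALAT1 rows with signal, the neighbouring row ENST00000533886 and the median of 2540 genes of at least 20 FPKM. In replicate 2 MALAT1 and NEAT1 lie at 1.40 and 1.41, ENST00000508832 at 1.75, the neighbour at 1.12 and the median gene at 1.10.

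Few genes followed the members more closely than they followed each other. Likeness was measured as the root mean square difference between the log2(FPKM + 1) deviations of 2 genes from their own means over the 4 libraries, among 1307 other named genes of at least 20 FPKM. NEAT1 was at place 4 for MALAT1, with a difference of 0.064 against a median of 0.276 over the genes compared. The nearest to MALAT1 were SRRM4, a gene of a neuronal splicing factor (0.057), TAF12-DT, the divergent transcript of TAF12 (0.060), and LNC-LBCS (0.062). For NEAT1, MALAT1 was at place 2, behind SMIM36 (0.031) and ahead of SRRM4 (0.072). SMIM36 was at 34.7, 55.4, 35.7 and 31.7 FPKM, and SRRM4 at 35.3, 58.9, 33.1 and 33.3 FPKM. Like the members they were high in replicate 2 and close together in the other libraries. With 4 libraries, of which 1 carries the pattern, this likeness is a description.

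Counting error was small beside the spread of the long NEAT1 row (27.8%) and of the main MALAT1 row (21.4%). It was not estimated for ENST00000508832. Low FPKM values lay on steps of whole fragments, within 0.05 for 80.2% to 80.8% of them when step and length offset were fitted for this share, and the steps gave depth estimates of 4520000, 4870000, 4750000 and 5060000 non-coding fragments in replicates 1 to 4. At these depths the long NEAT1 row stands for about 4608 to 7904 fragments, a counting error of 1.12% to 1.47%. The length of the MALAT1 model that was counted was not used here. Over the stretch of 378 nt that the study lists for ENST00000534336, its FPKM stand for 1026 to 1639 fragments, and for more over a longer model, so its counting error was at most 3.12%. These figures cover counting error only.

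The label of the cells was checked with lncRNAs of 3 kinds of cell. Of 6 hepatocyte lncRNAs with a row 5 were tested, and 3 of these 5 were called above 5 FPKM. Of all genes tested 50.3% were, and with so few genes the count itself tells nothing of the cells. The highest were HULC at 693 ± 64.8 FPKM and LINC00261 at 377 ± 27.7 FPKM, whereas FAM99A was at 0.238 ± 0.285 FPKM and LINC01093 was listed at 0. Of 3 measured blood and immune lncRNAs, LINC00426 was at 328 ± 24.7 FPKM, MIR142HG had a value above 0 in 1 library, 0.14 FPKM, and MIR155HG was listed at 0. Of 4 neuronal lncRNAs, RMST was at 78.9 ± 8.61 FPKM and MEG3 at 50.6 ± 3.28 FPKM, MIAT was called below 5 FPKM and MIR124-2HG was listed at 0. The summed level of each kind ranged over the libraries from 971 to 1153, from 300.2 to 351.2 and from 116.3 to 140.4 FPKM, in this order. Their part in the levels of the members was not tested.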

How the data were processed

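The authors removed ribosomal RNA (the labels also name polyA RNA) and made strand-specific libraries from HUH7 cells. The deposited FPKM values, with 2 decimals, were made by the authors with Bowtie 1.01 and RSEM 1.2.3 on Ensembl release 68 non-coding transcripts (hg19, GRCh37). RSEM divides reads shared by isoforms by estimation, and FPKM are relative to fragments on non-coding transcripts only. Rows were matched to GENCODE release 44 on GRCh37 without version (18373 of 19835), and gene values are sums of rows. Where the mean reached 0.1 FPKM, log2(FPKM + 1) of genes and transcripts was tested against log2(5 + 1), and differences from each member within libraries against 0, with limma 3.58.1 (R 4.3.3, trend, two-sided, Benjamini-Hochberg, threshold 0.05). The gene tests against 5 FPKM and against MALAT1 were also run on simulated data. There MALAT1 was held constant, so its own spread did not enter, and the simulation cannot vouch for the calls against it. The log scale understates differences of low genes. The ratio of the members used an exact sign-flip permutation test (SciPy 1.17.1). The 4 libraries were compared and no pair was identical. Genes named were the members, rows within 200 kb, 2 named genes on either side in level, the 3 most alike in pattern, the 2 highest and 2 lowest of each list, and the most abundant row where a scaling turns on it. Members and lists were chosen with earlier results of these data known. TALAM1, which has no row, and XIST, which is on none of the lists, were named outside this rule. A further listed marker is not reported here.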

Additional observations from a re-analysis of the deposited data

Results flagged for a closer look

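The level of the MALAT1 row ENST00000508832 in replicate 2, 405.4 FPKM, stood apart from the other 3 libraries (163.7 to 184.3 FPKM). Its gap to the nearest library was 0.915 of the whole range, above Dixon's 95% critical value for 4 samples. Of 7 member values and ratios checked in this way 1 was flagged. Chance flags about 1 in 20 separate groups, but these 7 overlap and cannot be set against that rate. The NEAT1 sum equals its long row, and the MALAT1 sum, the ratio and the share all contain the flagged row. The gene sums of MALAT1 and NEAT1 had gaps of 0.797 and 0.803 at the same library and were not flagged.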

How the results depend on the processing

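Over the alternatives run (pseudocount, filter on low values, trend, threshold, scaling, highest transcript and each library left out), the 2 genes and 3 rows stayed above 5 FPKM, and NEAT1 stayed below MALAT1. This held for 85 of 85 values of 7 comparisons. The number of genes above MALAT1, 31, became 50 with each gene as its highest transcript and ranged from 26 to 50 with a library left out, the highest without replicate 2. That above NEAT1, 1346, ranged from 1250 to 1504. With no filter on low values 11379 genes in place of 7037 were lower than MALAT1 and 9638 in place of 5294 lower than NEAT1, since more genes were tested. The spread ranged from 7.67% to 32.3% for MALAT1 and from 7.45% to 32.3% for NEAT1 with a library left out, the lowest without replicate 2. Under the 3 scalings it was 19.4% to 32.8% and 19.3% to 33.6%. With a library left out, the log2 ratio of MALAT1 to NEAT1, 4.41, ranged from 4.39 to 4.44, and the share of ENST00000508832 from 18.2% to 21.6%. With genes as their highest transcript the log2 ratio was 4.08. Shares weighted by length gave 100% for the long NEAT1 row. They were not run for MALAT1, nor the ratio from sums of FPKM times length, because the lengths of its counted models were not used here. The scalings of the replicate 2 ratios were chosen after seeing the data. No paired analysis was possible because there is 1 group. With 4 libraries the exact test cannot go below 0.13. The depth of 4520000 to 5060000 fragments sets no limit at the levels of the members. The shorter rows of either gene, by current models, share nearly all their sequence with the long row, which depth does not change.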
